A study of Mus musculus with 14 samples.

Results

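Uteri of Folr4 mutant females given folinic acid were compared with uteri of wild-type females given the same folinic acid, across every gene that the array measured. The comparison rests on 7 of the 14 arrays in the series, 4 from mutants and 3 from wild types, chosen by their labels alone. The mutants were homozygous for a Folr4 mutation and the wild types were C57BL/6, the background strain given for all samples. All 7 females had been given 12.5 mg/kg of folinic acid into the peritoneum 2 times, first 10 and then 3 days ahead of mating, and whole uterus was taken at day 3.5 of gestation. The other 7 arrays, 3 mutant and 4 wild type, came from females given saline, and serve here for the spread between samples and for a second view of the genotype. The labels call the replicates biological, and they do not say whether mutants and wild types were littermates or carry an age. The titles of wild-type replicates 1 and 2 share a number whose meaning is not stated. Those of saline wild-type replicates 2 and 3 also share a number.

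Folinic acid is a reduced folate that cells can use without dihydrofolate reductase. Folates carry the carbon units from which thymidylate and purines are made and with which homocysteine is turned back into methionine, so that DNA synthesis and methyl-group supply both draw on them. On the day before implantation the mouse uterus is under progesterone, the luminal epithelium leaves the cell cycle and the stroma starts to divide. Folr4, now named Izumo1r, resembles the folate receptors in sequence. Its protein does not bind folate. It sits on the egg, where it binds Izumo1 of the sperm, and on regulatory T cells.

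Median signals of the 7 arrays were 135.6 to 146, and each array had an average rank correlation (Spearman) of 0.943 to 0.953 with the rest of the series. The 3-prime to 5-prime signal ratio of actin, which grows as RNA degrades, ran from 1.54 to 3.12 and was highest in mutant replicate 3. All 15 uterine markers checked, among them the receptor genes Esr1 and Pgr and the patterning genes Hoxa10 and Hoxa11, passed the filter on low values. Defining genes of the early embryo were dim, with Nanog between 1.19 and 18.7 and Sox2 between 1.26 and 18.9. The oviduct glycoprotein Ovgp1 ranged from 1329 to 14999 over the 7 arrays. The other oviduct markers checked were below the filter, with Foxj1 at 3.88 to 54.5, Tekt1 at 2.33 to 39.8 and Rsph1 at 60.3 to 129. In whole tissue, fewer cells of a type and less RNA per cell cannot be told apart.

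The targeted gene was too dim to check the genotype labels. Its probe set gave signals of 8.67, 14.8, 41.3 and 6.14 in the mutants and of 16.3, 13.5 and 54.8 in the wild types, at the 23.04th percentile of all probe sets and below the filter on low values. The groups overlapped, and the log2 difference was -0.77 (exact two-sided permutation test over 35 assignments, p = 0.429, where the smallest p possible is 0.0286). The folate receptor gene Folr1 was below the filter as well, at 65.9 to 131 in mutants and 88.4 to 117 in wild types. Folr2, the folate receptor of macrophages, read 680.4, 292, 179 and 458 in mutants against 281, 595 and 329 in wild types. Its log2 difference was -0.09 ± 0.42 (SE), and the groups overlapped. Of the 60 array genes that flank Folr4 on chromosome 9, 30 on either side, 40 were measured, and 22 were higher and 18 lower in mutants. Of the 40, 0 had groups that did not overlap. Over all genes measured, 1.73% did not overlap and were higher and 3.27% did not overlap and were lower, so few would be looked for among 40.

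Differences are given as log2 of mutant over wild type with the standard error of a limma fit across all 14 arrays, and p is adjusted by the Benjamini-Hochberg method over the 22519 probe sets kept. A single probe set, that of Erdr1, passed an adjusted p of 0.05, which is 0.00444% of those tested. At an unadjusted p of 0.05, 858 probe sets passed (3.81%), 341 higher (1.51%) and 517 lower (2.30%) in mutants. A second, plainer description counts the probe sets for which the highest array of 1 group lies below the lowest array of the other. The groups were apart in that way for 1112 probe sets (4.94%), 425 higher (1.89%) and 687 lower (3.05%). Without mutant replicate 2, unadjusted p-values under 0.05 numbered 1681, and 2941 probe sets were apart, a count that cannot fall when an array is left out. Taken by gene, with 1 probe set each, 195 of 11269 genes were apart and higher (1.73%) and 368 were apart and lower (3.27%), 563 in all. At least 2-fold differences with groups apart were found for 2 genes on the higher side (0.0177%) and 17 on the lower side (0.151%). By sign alone, 46.7% of genes were higher and 53.3% lower in mutants. The median gene differed by -0.02, and the interquartile range ran from -0.16 to 0.13.

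Erdr1, a gene of the X chromosome linked to erythroid differentiation, was the gene that passed. Its signal was 8775, 5553, 8834 and 6066 in the mutants, against 569.7, 285 and 336 in the wild types. All 4 mutant arrays thus stood far above all 3 wild-type arrays. The log2 difference was 4.24 ± 0.35 (SE), or 18.8-fold, with an adjusted p of 7.88e-05 in limma. After saline the 3 mutants read 11929, 8034 and 5956 and the 4 wild types 141, 365, 234 and 398, a log2 difference of 4.98 ± 0.35. The difference between the injections was -0.74 ± 0.49 (adjusted p = 0.911). The suffix of this probe set marks probes that can also bind other transcripts. A second Erdr1 probe set, below the filter, read 92, 56.2, 118 and 95.2 in mutants and 18.2, 2.82 and 9.52 in wild types. Erdr1 is in the list of strain-variable genes, those taken to differ between mouse strains. Strain background was not tested apart from the mutation.

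Pdgfd, which encodes a ligand of the platelet-derived growth factor receptor beta, was next in the ranking. Its signals of 113, 101, 224 and 91.4 in mutants lay below the wild-type signals of 1167, 785 and 533. The log2 difference was -2.67 ± 0.47, and its adjusted p of 0.524 missed the threshold. After saline the difference was -0.76 ± 0.47, with the mutants at 194, 536 and 790.3 and the wild types at 839, 887, 359 and 1083, so that the groups overlapped there. Pdgfd lies on chromosome 9, as Folr4 does, and so does Casp4, an inflammatory caspase. Casp4 read 408, 146, 409 and 264 in mutants against 678, 696 and 808 in wild types, at -1.36 ± 0.34. After saline its difference was -0.99 ± 0.34. Neither gene is among the 60 flanking genes counted above.

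**Figure D1:**
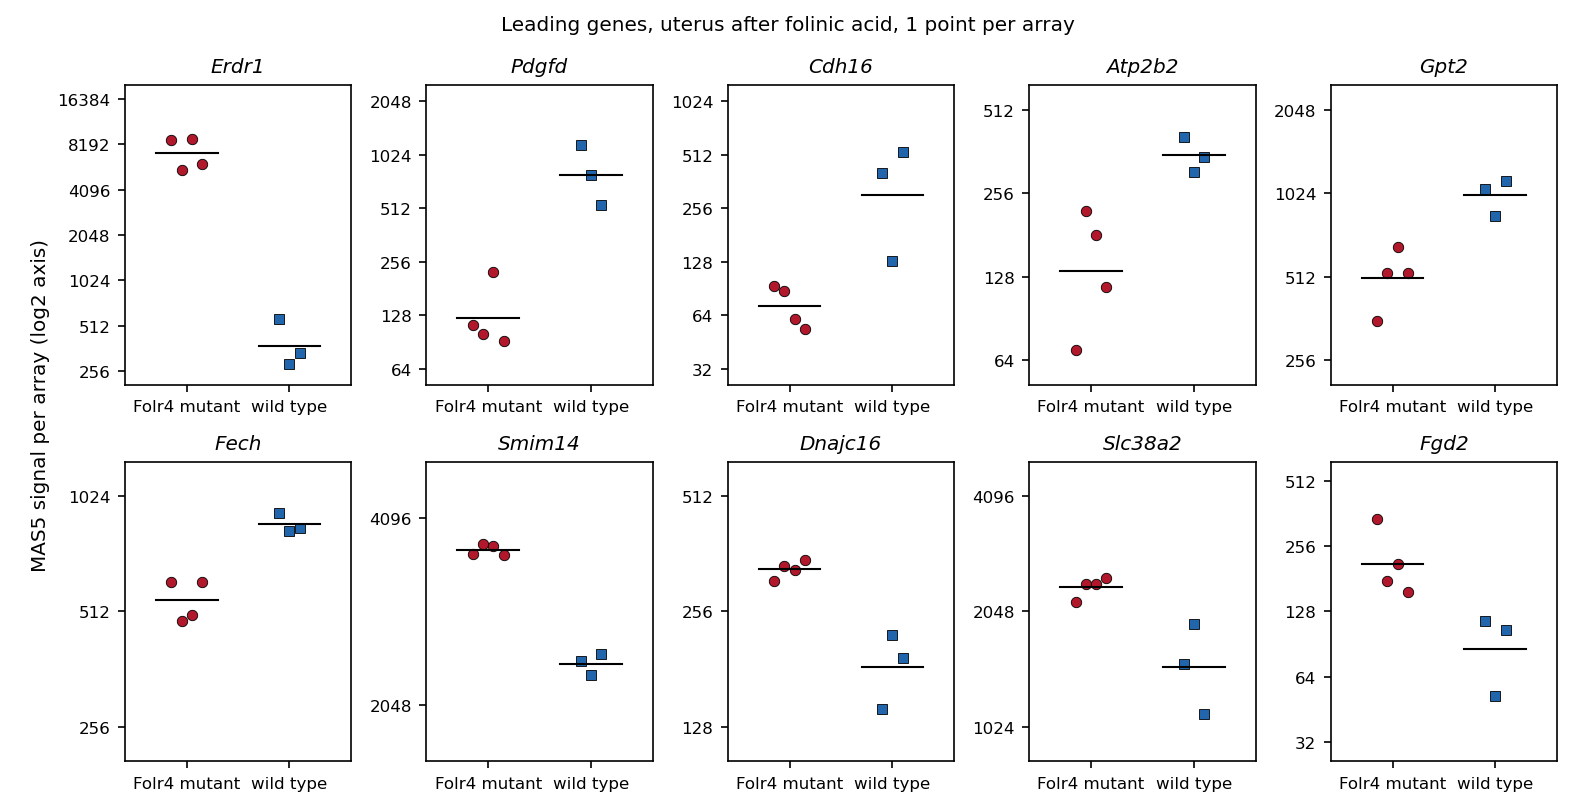
Signal of 10 leading genes on each array, on log2 axes, with Folr4 mutants as red circles and wild types as blue squares, all after folinic acid. The horizontal bar is the mean of the log2 signals. Erdr1 stands at 5553 to 8834 in mutants and 285 to 569.7 in wild types, and in none of the 10 panels do the groups overlap.

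The other genes with the smallest p on the lower side were of many kinds, and all had an adjusted p of 0.999. Atp2b2, a plasma membrane calcium pump, read 69.8, 221, 181 and 117 in mutants against 407, 306 and 346 in wild types (-1.38 ± 0.31). Cdh16, a cadherin of epithelia, read 94, 87.9, 60.9 and 53.9 in mutants against 404, 129.8 and 530.3 in wild types (-2.07 ± 0.47). On these probe sets both were lower in every mutant than in any wild type. A brighter Atp2b2 probe set differed by -0.69 ± 0.38 with overlapping groups, and its highest array was mutant replicate 2. Fech, which inserts iron into haem, read 612, 484, 500.5 and 611 in mutants against 926, 833 and 845 in wild types (-0.66 ± 0.16). Gpt2, the mitochondrial alanine aminotransferase, read 355, 526, 655 and 529.6 in mutants against 1063, 850.4 and 1133 in wild types (-1.0 ± 0.25). The gene Ephx2, for the soluble epoxide hydrolase, read 202, 267, 215 and 248 in mutants against 379, 353 and 377 in wild types (-0.68 ± 0.17). On these probe sets the mutants were again below the wild types for all 3 genes. Other measured probe sets of Fech differed by -0.31 with groups apart and by -0.27 with overlapping groups. Those of Gpt2 differed by -0.98 with groups apart, and by -0.58 and -0.48 with overlapping groups. The phosphatase gene Dusp14 differed by -0.87 ± 0.21, the scaffold gene Cask by -0.64 ± 0.16, the RNA-binding protein gene Carhsp1 by -0.73 ± 0.19 and the anaphase ubiquitin-conjugating enzyme gene Ube2s by -0.57 ± 0.15. Tmem198b stood at -0.63 ± 0.16 and Lratd1 at -1.0 ± 0.26. Groups were apart for all 6 of these genes, and they overlapped for Map2, a microtubule-associated protein gene (-1.38 ± 0.35). Other probe sets of some of these genes gave differences near 0. The other measured probe set of Carhsp1 differed by -0.03 ± 0.19, and the 3 others of Cask by 0.13, -0.10 and 0.00, each with overlapping groups.

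By size of difference among genes whose groups were apart, the lower side added Slc6a14, Gm266, Jam2, Diaph3, Tk1 and Anxa2. Slc6a14, an amino acid transporter, read 99.4, 336, 252 and 39.2 in mutants against 481, 506 and 368 in wild types (-1.73 ± 0.78). Without mutant replicate 4 the difference was -1.14, and after saline it ran the other way, at 1.08. Jam2, an endothelial junction protein, read 112, 142, 214 and 144 in mutants against 536, 351 and 232 in wild types (-1.24 ± 0.34). Brighter Jam2 probe sets differed by -0.96 ± 0.61 and -0.96 ± 0.48, with overlapping groups and mutant replicate 2 the highest array in each. Diaph3, an actin-nucleating formin, differed by -1.22 ± 0.44, and Anxa2, a membrane-binding annexin, by -1.21 ± 0.37. A second, much brighter Anxa2 probe set, at 8444 to 12911 in mutants and 10820 to 11547 in wild types, differed by -0.16 ± 0.16, and its groups overlapped. The predicted gene Gm266 stood at -1.27 ± 0.47.

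On the higher side the differences were smaller, and several were uniform across the arrays on the probe set of smallest p. Smim14, a small membrane protein gene, read 3587, 3711, 3687 and 3575 in mutants against 2407, 2292 and 2472 in wild types (0.61 ± 0.16). Dnajc16, a member of the heat shock co-chaperone family, read 308, 337, 327 and 348 in mutants against 142, 222 and 193 in wild types (0.85 ± 0.21). Slc38a2, a sodium-coupled transporter of neutral amino acids, read 2164, 2418, 2422 and 2508 in mutants against 1489, 1901 and 1109 in wild types (0.70 ± 0.19). On these probe sets the mutants lay above the wild types for all 3, with an adjusted p of 0.999 each in limma. Other measured probe sets differed by 0.19 and 0.13 for Smim14, 0.21 for Dnajc16 and 0.20 for Slc38a2, all with overlapping groups. The chromatin protein gene Kmt2e read 4601, 5219, 4480.0 and 3869 in mutants against 3513, 3301 and 2860.2 in wild types (0.49 ± 0.13). Bach1, a haem-sensing repressor, read 3375, 2263, 2615 and 2771 in mutants against 1945, 1802 and 1980.3 in wild types (0.52 ± 0.15). Cux1, a homeodomain factor, read 732, 652, 709 and 984 in mutants against 432, 432 and 477 in wild types (0.77 ± 0.23). Other measured probe sets of Kmt2e differed by 0.10 to 0.22 and those of Cux1 by -0.15 to 0.26, again with overlapping groups. The zinc finger gene Zfp217 (0.47 ± 0.13) and the SMAD and androgen receptor cofactor gene Zmiz1 (0.60 ± 0.16) were also higher in every mutant. The transcription factor gene Akna (1.04 ± 0.38, or 0.65 without mutant replicate 1) was named for its size of difference among genes whose groups were apart.

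The other genes on the higher side were of many kinds. Ror2, a receptor for Wnt5a, read 636, 867, 841 and 1001 in mutants against 411, 544 and 559 in wild types (0.72 ± 0.20). Alcam, a cell adhesion molecule, read 630.1, 1035, 789 and 1407 in mutants against 429, 466 and 603 in wild types (0.90 ± 0.26). Fgd2, an exchange factor for Cdc42 known from antigen-presenting cells, read 343, 177, 212 and 158 in mutants against 115, 52 and 105 in wild types (1.31 ± 0.37). Groups did not overlap for Ror2, Alcam and Fgd2, nor for the kinase gene Stk17b (0.96 ± 0.26), the protease gene Sppl3 (0.71 ± 0.19) and Eva1a (0.85 ± 0.24). By size of difference among genes whose groups were apart, the higher side added the NK cell receptor gene Klre1 (0.88 ± 0.33), the lectin gene Chodl (0.85 ± 0.29), Cdip1 (0.94 ± 0.33) and Akna. Where the 40 leading genes had other measured probe sets, 34 of 44 gave the same sign, but 9 of these were at least 0.5 times as large and 4 of the 44 were apart between groups, those of Ror2, Akna, Fech and Gpt2. The 4 others of Alcam stood at 0.08 to 0.28, and the 2 others of Stk17b at 0.28 and 0.29. In contrast, all 3 others of Cdip1, both others of Sppl3 and the other of Bach1 had the opposite one.

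Genes of DNA replication were lower in the mutants as a group. Of 38 measured genes of DNA replication and S phase, 36 were lower and 2 higher, with a median log2 difference of -0.47, beside 53.3% lower and a median of -0.02 over all genes. Groups were apart for 10 of the 38 (26.3%), all lower, beside 3.27% of all genes. For 14, all lower, the unadjusted p was under 0.05, beside 2.42% of all genes. After saline the same 38 genes had a median difference of 0.06, with 24 higher and 14 lower. None of the 38 passed the adjusted threshold in limma.

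The 10 genes cover the steps from licensing to elongation. Orc1, the large subunit of the origin recognition complex, read 81.3, 119.8, 141 and 129.8 in mutants against 148, 254 and 259.8 in wild types (-0.89 ± 0.33). Cdc45, a part of the replicative helicase, read 147, 139, 101 and 127 in mutants against 232, 173 and 331 in wild types (-0.90 ± 0.27). Pola1, the catalytic subunit of the polymerase that primes DNA synthesis, read 348, 223, 366 and 256 in mutants against 536, 441 and 532 in wild types (-0.78 ± 0.26). In each the highest mutant stayed below the lowest wild type. Tcf19, a factor switched on at the entry into S phase, read 684, 489, 548 and 521 in mutants against 989, 785 and 1175 in wild types (-0.80 ± 0.18), and had the smallest p of the list. The other 6 are named because their groups were apart. The helicase subunit genes Mcm2 (-0.54 ± 0.24), Mcm4 (-0.34 ± 0.17) and Mcm5 (-0.57 ± 0.23) were among them. So were Pole, the leading-strand polymerase gene (-1.03 ± 0.39), the primase gene Prim1 (-0.58 ± 0.27) and the clamp loader gene Rfc5 (-0.55 ± 0.22). Mcm5 read 1160.0, 1069, 1150.3 and 918 in mutants against 1416, 1345 and 2093 in wild types, with wild-type replicate 3 the highest and a difference of -0.37 without it. Pcna, the sliding clamp, lay at -0.21 ± 0.23 with overlapping groups, and the 2 members on the higher side were Orc6 at 0.11 and Pold3 at 0.20.

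Genes of mitosis and the spindle showed the same direction with a wider spread between arrays. Of 40 measured, 39 were lower and 1, Foxm1, was at 0.02, and the median was -0.65. Groups were apart for 8, all lower (20%, beside 3.27% of all genes), and 13, all lower, had an unadjusted p under 0.05. After saline the median was -0.02, with 18 higher and 22 lower. Ccnf, cyclin F, read 165, 85.7, 79.7 and 128 in mutants against 193, 168 and 364 in wild types (-1.06 ± 0.36). Prc1, which bundles microtubules at the spindle midzone, read 369.6, 240.0, 278 and 426 in mutants against 637, 440.4 and 737 in wild types (-0.89 ± 0.32). Nuf2, a kinetochore subunit, read 155, 105, 122 and 150.4 in mutants against 231, 211 and 354 in wild types (-0.97 ± 0.37). In these 3 genes the mutants were below the wild types, with wild-type replicate 3 the highest array. The mitotic kinase gene Pbk stood at -1.09 ± 0.38. Named because their groups were apart, Top2a, which untangles DNA, stood at -0.67 ± 0.30, the condensin genes Smc2 and Ncaph at -0.41 ± 0.19 and -0.48 ± 0.20, and Cks2, a subunit of cyclin-dependent kinases, at -0.88 ± 0.34. Without wild-type replicate 3 Top2a stood at -0.44 and Ncaph at -0.26, and without mutant replicate 2 Cks2 stood at -0.58. Mki67, the usual marker of cycling cells, read 1068, 696, 1167 and 1414 in mutants against 1268, 1178 and 2325 in wild types, and its groups overlapped.

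**Figure D2:**
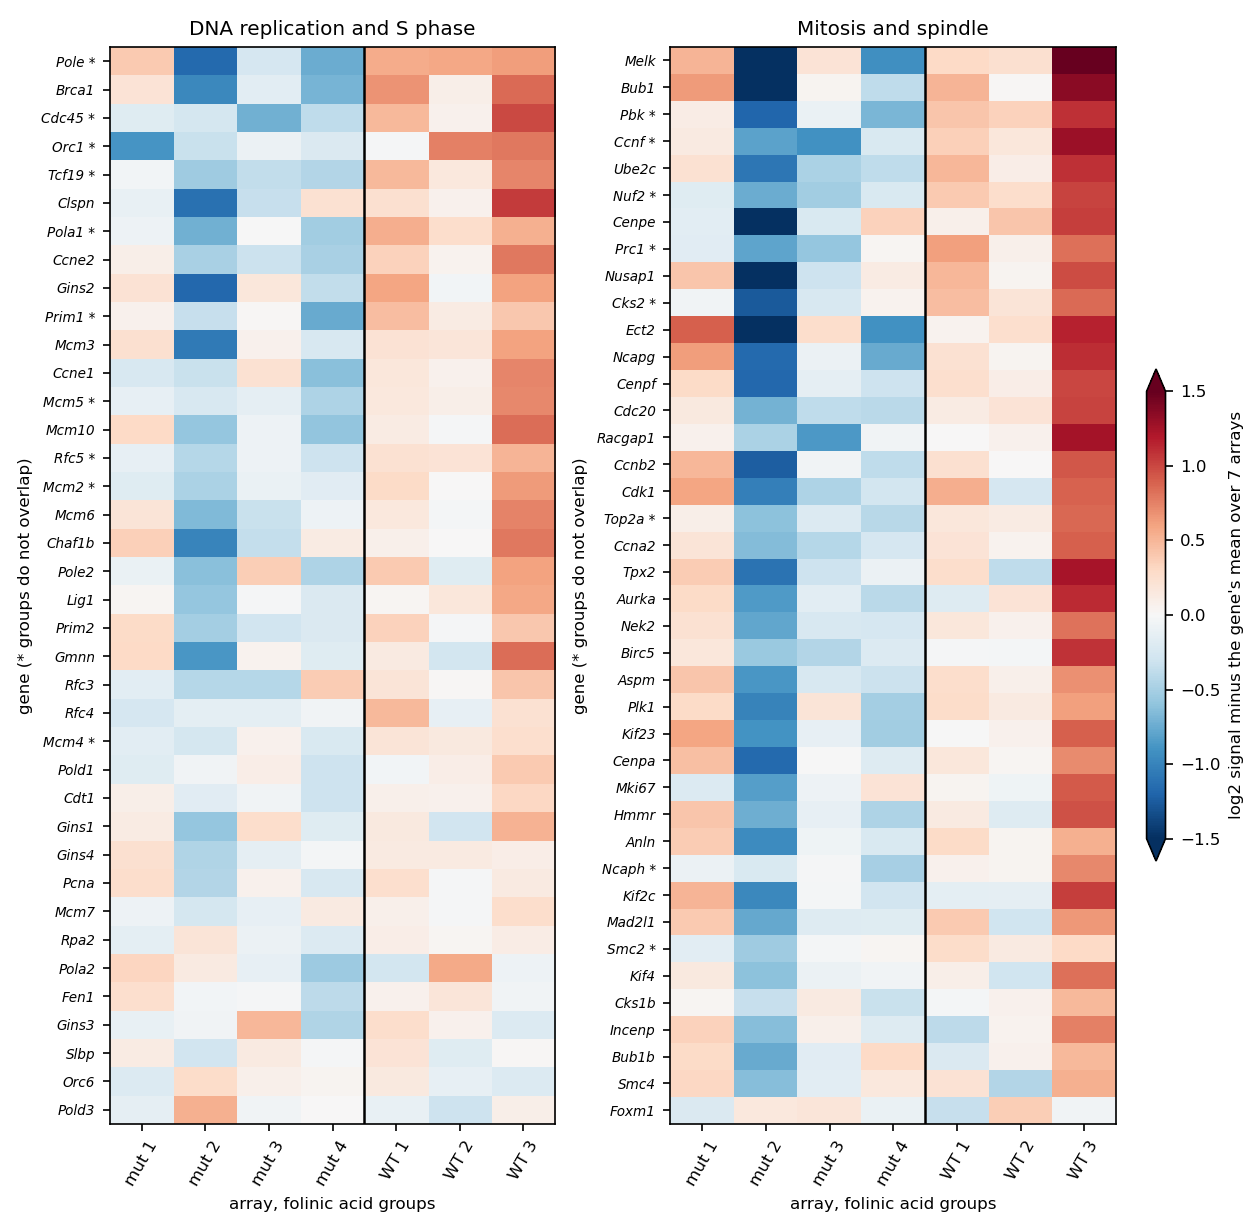
Heat map of 38 genes of DNA replication and S phase (left) and 40 genes of mitosis and the spindle (right), rows ordered by log2 difference, columns for the 4 mutant and then the 3 wild-type arrays after folinic acid. Colour is log2 signal minus the gene's mean over the 7 arrays, capped at 1.5 either way, and a star marks groups that do not overlap. Mutant replicate 2 is the bluest column and wild-type replicate 3 the reddest, most of all in the right panel.

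Single arrays weighed on these counts. The list level, the mean over members of log2 signal centred on the 7 arrays, was 0.02, -0.43, -0.07 and -0.27 in mutants for DNA replication, against 0.23, 0.07 and 0.47 in wild types. All mutants were below all wild types. For mitosis it was 0.25, -0.92, -0.18 and -0.25 in mutants against 0.18, 0.05 and 0.89 in wild types, so that mutant replicate 1 overlapped the wild types. Without wild-type replicate 3 the medians were -0.30 for DNA replication and -0.40 for mitosis, and without mutant replicate 2 the mitosis median was -0.43. Without mutant replicate 1 the genes apart numbered 19 of 38 and 23 of 40, and without wild-type replicate 2 they numbered 17 of the 38 replication genes. Such counts cannot fall when an array is left out. Over all probe sets kept, the count went from 1112 to as many as 2941, without mutant replicate 2.

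Letters of known cell cycle motifs were counted in the promoters of these genes, in windows of 250 bases before to 50 after the start site, from RefSeq on GRCm38.p6. An E2F site, searched as TTTCCCGC or TTTGGCGC on both strands, was present for 11 of the 30 replication genes with a promoter entry (36.7%) and for 1 of 34 mitosis genes (2.94%), beside 313 of 9099 genes measured (3.44%). The CCAAT box, searched on both strands, was present for 19 of 30 replication genes (63.3%) and 26 of 34 mitosis genes (76.5%), beside 42.5% of all. Of the 8 replication genes apart between groups that had an entry, 2 carried E2F letters, Mcm5 and Pola1. The windows of these genes are shown with the E2F letters in capitals, and those of Ccnf and Prc1 with the CCAAT letters in capitals, since both motifs are known from the control of cycling genes. The E2F letters of Mcm5 and Pola1 stand on the reverse strand. Prc1 has 2 entries, of which the upstream one is shown. They lie at chr8:75109259-75109558 on the plus strand, chrX:93632106-93632405 on the minus strand, chr17:24251360-24251659 on the minus strand and chr7:80294201-80294500 on the plus strand, each printed 5′ to 3′ along the gene.
Mcm5: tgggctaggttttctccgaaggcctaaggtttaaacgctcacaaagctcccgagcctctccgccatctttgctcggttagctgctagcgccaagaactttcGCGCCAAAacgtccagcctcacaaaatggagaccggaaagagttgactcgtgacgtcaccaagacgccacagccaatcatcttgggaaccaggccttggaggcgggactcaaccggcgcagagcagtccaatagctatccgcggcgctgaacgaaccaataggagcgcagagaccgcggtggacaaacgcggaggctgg
Pola1: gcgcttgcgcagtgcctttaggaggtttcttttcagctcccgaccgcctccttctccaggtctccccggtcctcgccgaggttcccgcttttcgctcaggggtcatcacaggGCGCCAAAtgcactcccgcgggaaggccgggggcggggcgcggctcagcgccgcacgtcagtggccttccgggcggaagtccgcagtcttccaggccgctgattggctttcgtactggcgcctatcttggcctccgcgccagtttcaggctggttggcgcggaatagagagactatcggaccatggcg
Ccnf: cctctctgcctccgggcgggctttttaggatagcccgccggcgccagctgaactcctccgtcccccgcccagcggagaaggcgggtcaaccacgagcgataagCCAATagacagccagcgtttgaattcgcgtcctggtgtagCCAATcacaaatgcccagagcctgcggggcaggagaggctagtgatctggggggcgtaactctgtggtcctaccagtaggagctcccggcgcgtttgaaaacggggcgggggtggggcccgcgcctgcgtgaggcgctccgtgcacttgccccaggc
Prc1: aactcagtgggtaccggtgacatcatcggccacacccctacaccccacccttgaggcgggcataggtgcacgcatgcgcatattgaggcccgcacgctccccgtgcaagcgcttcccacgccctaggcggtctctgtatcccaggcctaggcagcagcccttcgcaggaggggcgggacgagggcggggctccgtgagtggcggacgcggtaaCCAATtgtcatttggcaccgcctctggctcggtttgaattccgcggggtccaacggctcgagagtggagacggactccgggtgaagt

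Nucleotide synthesis and the brakes of the cell cycle were looked at beside the proliferation genes. Of 25 measured genes of purine and pyrimidine synthesis, 19 were lower, with a median of -0.26, or -0.14 without mutant replicate 2. Tk1, the thymidine kinase of S phase, read 133, 86.7, 89.9 and 103 in mutants against 262, 161 and 316 in wild types (-1.22 ± 0.41). Rrm2b, the p53-linked subunit of ribonucleotide reductase, read 547, 563, 548 and 476 in mutants against 692, 717 and 659 in wild types (-0.37 ± 0.15). Those 2 were the genes apart between groups (8%, both lower, beside 3.27% of all genes), and Dut, which keeps uracil out of DNA, overlapped at -0.51 ± 0.25. Cdkn1a, the p21 inhibitor of cyclin-dependent kinases, went the other way. It read 668, 539.7, 574 and 578 in mutants against 327, 485 and 377 in wild types (0.59 ± 0.19). Among the 20 measured inhibitors and p53 targets it was the 1 gene apart (5%, beside 1.73% of all genes apart and higher and 3.27% apart and lower). Of those 20, 9 were higher and 11 lower, with a median of -0.02. Uhrf1, which brings the maintenance methyltransferase to newly replicated DNA, read 424, 153, 422 and 313 in mutants against 536, 563 and 712 in wild types (-0.98 ± 0.33, or -0.65 without mutant replicate 2). The methyltransferase genes themselves overlapped, with Dnmt1 at -0.18 ± 0.16, Dnmt3a at 0.32 ± 0.38 and Dnmt3b at 0.12 ± 0.22.

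Of 19 measured genes of folate uptake and folate enzymes, 15 were lower in the mutants and 4 higher, with a median of -0.26, and 3 were apart between groups (15.8%, all lower, beside 3.27% of all genes). Slc19a1, the reduced folate carrier through which folinic acid enters cells, read 595, 742, 708 and 639 in mutants against 826, 785 and 887 in wild types (-0.32 ± 0.16). Gcsh, the carrier protein of the glycine cleavage system, read 2933, 3187, 3269 and 2754 in mutants against 3924, 3448 and 4272 in wild types (-0.35 ± 0.15). Sardh, sarcosine dehydrogenase, read 293, 415, 441 and 324 in mutants against 479, 459 and 465 in wild types (-0.36 ± 0.18). On these probe sets the differences were small and in the same direction in every mutant, with an adjusted p of 0.999 in limma. Another measured probe set of Slc19a1 differed by -0.19 ± 0.22 and another of Sardh by -0.45 ± 0.29, both with overlapping groups. The largest difference of the list, in Mthfd2, a mitochondrial enzyme of dividing cells, was not uniform. It read 261, 1167, 473 and 141 in mutants against 817, 1039 and 823 in wild types (-1.23 ± 0.60), so that mutant replicate 2 was the highest of the 7 arrays and replicates 1 and 4 the lowest. Mthfd1, the cytosolic enzyme, had 1153, 3273, 2969 and 949.7 in mutants against 3299.5, 2888 and 2486 in wild types, with the same 2 mutants low. Of 15 measured genes of the methionine and transmethylation cycle, 12 were lower at a median of -0.08, and 0 were apart. That median was -0.15 without wild-type replicate 1 and -0.22 without wild-type replicate 3. Mtr, methionine synthase, read 202, 231, 336 and 263 in mutants against 374, 277 and 524 in wild types (-0.58 ± 0.28, or -0.34 without wild-type replicate 3).

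Progesterone targets of the uterus leaned lower, with 24 of 34 measured genes lower, a median of -0.28 and 3 apart between groups, all lower (8.82%, beside 3.27% of all genes). After saline 23 were higher and 11 lower, at a median of 0.23. Hoxa10, a homeobox gene needed for implantation, read 3665, 2964, 3606 and 2615 in mutants against 5193, 3799.6 and 4411 in wild types (-0.48 ± 0.20). Sgk1, a kinase that controls epithelial sodium uptake, read 2935, 1872, 4723 and 2756 in mutants against 4860.2, 4996 and 5155 in wild types (-0.78 ± 0.28). Id1, an inhibitor of differentiation driven by BMP signals, read 731, 925, 1115 and 1059 in mutants against 2206, 1207 and 1539.7 in wild types (-0.76 ± 0.23). All 3 were lower in each mutant than in each wild type. The progesterone receptor itself, Pgr, overlapped at 0.06 ± 0.26, and so did Esr1 at -0.03 ± 0.12. Cyp26a1, which breaks down retinoic acid in the luminal epithelium, read 401, 108, 67.2 and 188 in mutants against 487, 496 and 348 in wild types (-1.52 ± 0.47), with mutant replicate 1 inside the wild-type range. Cebpb, a factor of the decidual response, read 2130.1, 1165, 986 and 1759 in mutants against 805, 1028 and 753 in wild types (0.75 ± 0.25).

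Several epithelial genes were split within the mutant group. Lrp2, the endocytic receptor megalin, read 106, 4142, 631 and 67.3 in mutants against 2752, 3041 and 1839 in wild types. Its log2 difference of -2.75 ± 0.99 was the widest of the progesterone list, yet mutant replicate 2 was above all wild types. Calb1, a calcium-binding protein of the uterine epithelium, read 2550.2, 19794, 8365 and 1336 in mutants against 14430.5, 14659 and 20166 in wild types (-1.73 ± 0.63). Fxyd4, a regulator of the sodium pump, read 2030.1, 23760.5, 5280.4 and 2277 in mutants against 11666, 14164 and 11168 in wild types (-1.32 ± 0.64). Ihh, the epithelial signal to the stroma, read 115, 606, 723 and 179 in mutants against 842, 833 and 465 in wild types (-1.16 ± 0.56). Replicates 1 and 4 were the low mutants in all 4 genes. Over the progesterone list, the level was -0.30 and -0.58 in those replicates, 0.12 and 0.10 in mutant replicates 2 and 3, and 0.16 to 0.30 in wild types, so all mutants were below all wild types by this mean. Its median was -0.09 without mutant replicate 4 and -0.16 without mutant replicate 1. General epithelial markers did not follow that split, with list levels of -0.35, -0.09, -0.20 and 0.32 in mutants against -0.11, -0.04 and 0.48 in wild types. Among these, the epithelial factor gene Ehf was lower in each mutant (-0.45 ± 0.18).

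**Figure D3:**
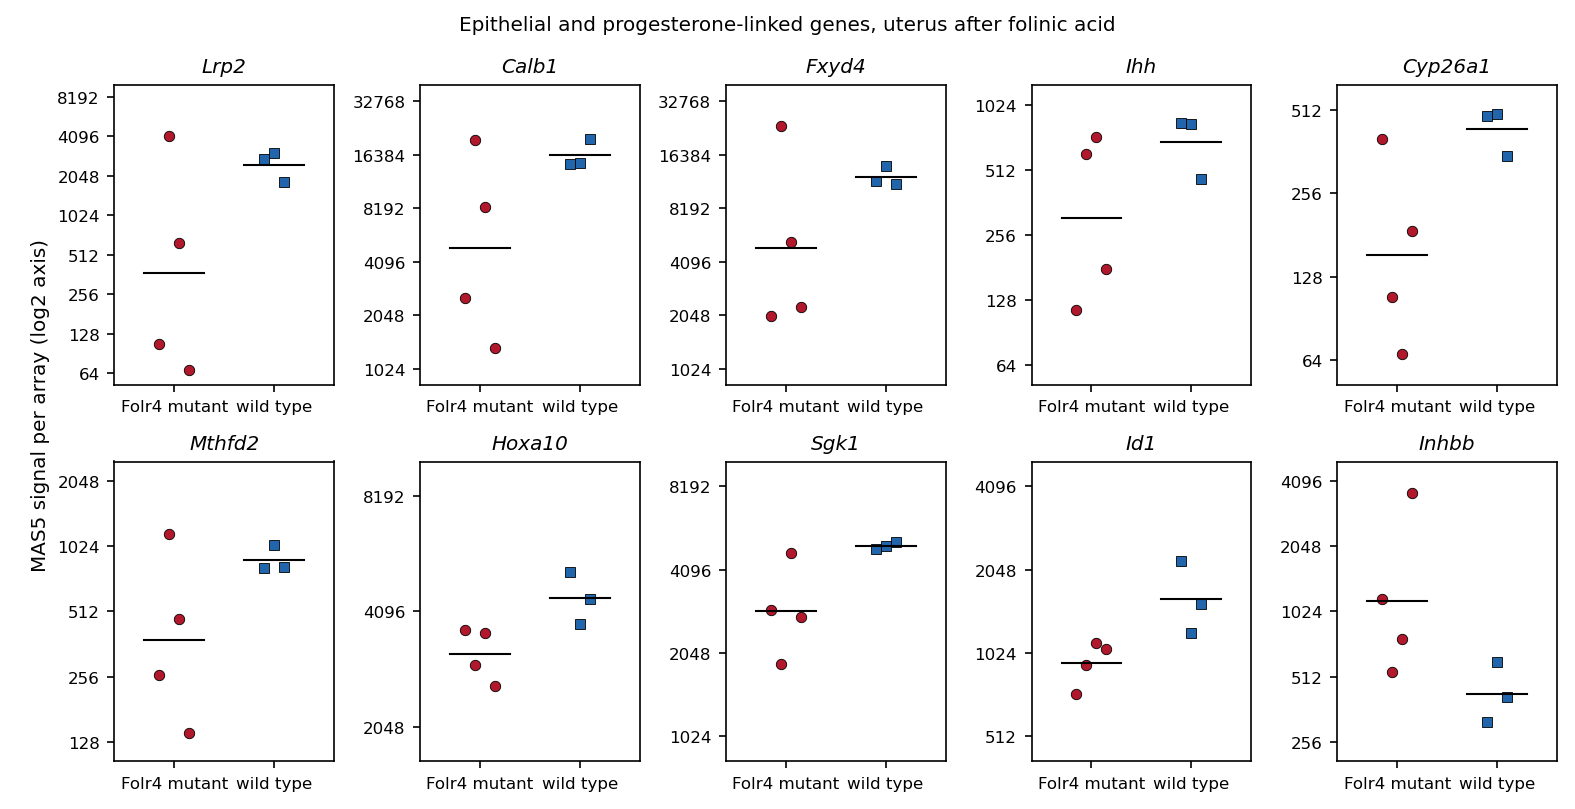
Signal of 10 epithelial, progesterone-linked and folate genes on each array after folinic acid, on log2 axes, with Folr4 mutants as red circles and wild types as blue squares and the mean log2 signal as a bar. Hoxa10, Sgk1 and Id1 are lower in every mutant, while Lrp2, from 67.3 to 4142 in mutants, spans the wild-type range of 1839 to 3041.

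Growth factor and signalling lists had 0 to 2 genes apart each, to be read beside 1.73% of all genes apart and higher and 3.27% apart and lower. Of 32 measured Wnt genes 19 were higher, and Ror2, on the higher side, was the 1 apart (3.13%). Axin2, a Wnt target, read 724, 669.8, 1063 and 1492 in mutants against 648, 664 and 674 in wild types (0.50 ± 0.22, or 0.28 without mutant replicate 4). Lef1, a Wnt-responsive factor, overlapped at -0.82 ± 0.38, or -0.47 without wild-type replicate 1. Of 38 BMP, activin and TGF-beta genes 2 were apart (5.26%), Id1 on the lower and Ltbp1, which stores TGF-beta in the matrix, on the higher side (0.53 ± 0.21). Inhbb, the activin beta B subunit, had 1166, 538, 763 and 3604 in mutants against 316, 598 and 412 in wild types (1.42 ± 0.50, or 0.87 without mutant replicate 4). Nrg4, an ErbB4 ligand, was the 1 EGF family gene apart of 13 (7.69%), at 90.8, 125, 155 and 93.2 in mutants against 219.5, 189.8 and 169 in wild types (-0.76 ± 0.23).

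The oestrogen targets ran opposite to the progesterone targets on some arrays, with 20 of 27 measured genes higher and a median of 0.18. Levels were 0.46, -0.46, 0.10 and 0.43 in mutants against -0.54, -0.06 and 0.07 in wild types, so the groups overlapped. The median moved between 0.08 without wild-type replicate 1 and 0.41 without mutant replicate 2. It was 0.09 without mutant replicate 1, 0.36 without wild-type replicate 2 and 0.34 without wild-type replicate 3. After saline the same genes had a median of -0.25, with 6 higher and 21 lower.

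Most immune lists, though not all, were higher by sign, and none of them had a gene apart between groups. Of 25 measured genes of macrophages and dendritic cells 24 were higher, with a median of 0.42, and 0 were apart between groups. After saline 1 was higher and 24 were lower, at a median of -0.38. Csf1r, the receptor for the macrophage growth factor, read 10209, 2859.8, 4059 and 5105 in mutants against 3188, 3743 and 3508 in wild types (0.51 ± 0.34). Cd68, a lysosomal protein of macrophages, read 1778, 370.0, 546 and 909 in mutants against 374, 474 and 423 in wild types (0.84 ± 0.44). Mutant replicate 1 was the highest array for both, and mutant replicate 2 the lowest. Without mutant replicate 1 the differences were 0.17 for Csf1r and 0.43 for Cd68. The summed signal of the list was 140859 in mutant replicate 1 and 27027 to 57978 in the other mutants, against 38155 to 48043 in wild types. Without mutant replicate 1 the median was 0.04, and without mutant replicate 2 it was 0.74. Cytokines and their receptors (20 of 24 higher, median 0.36) and complement genes (19 of 24 higher, median 0.24) had 0 genes apart as well, and so did MHC class II genes (18 of 21 higher, median 0.20) and B cell genes (9 of 10 higher, median 0.49). The first 3 medians were 0.18, -0.07 and -0.05 without mutant replicate 1, and 0.55, 0.39 and 0.52 without mutant replicate 2. The B cell median was 0.27 without mutant replicate 3 and 0.30 without wild-type replicate 1. Without wild-type replicate 1 the MHC class II median was -0.01 and the complement median 0.15, and without wild-type replicate 3 they were 0.47 and 0.13. The complement median was 0.14 without mutant replicate 4. T cell and NK cell genes had 12 of 16 higher at a median of 0.20, which ranged from 0.07 to 0.36 when 1 array was left out. Genes of the interferon response had 20 of 33 higher at a median of 0.03, with a range of -0.15 to 0.36. Genes of neutrophils, eosinophils and mast cells had 2 of 7 higher at a median of -0.37, with a range of -0.84 to 0.24. After saline the medians were -0.39 for cytokines, -0.37 for complement, -0.36 for MHC class II and -0.03 for B cells. They were -0.19 for T and NK cells, -0.17 for the interferon response and -0.48 for neutrophils, eosinophils and mast cells. Klre1 and Fgd2, whose groups were apart as given above, are in none of these lists. Il1b, interleukin 1 beta, read 2079.7, 119, 414 and 126 in mutants against 96.5, 140.1 and 173 in wild types, with mutant replicate 1 far above the rest.

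Immediate-early genes, which respond to signals and to tissue handling within minutes, were higher for 29 of 31 measured members, with a median of 0.36. In this list 1 gene was apart (3.23%, beside 1.73% of all genes apart and higher and 3.27% apart and lower). Atf3, a stress-induced factor, was that gene and read 437, 261, 262 and 365 in mutants against 183, 223 and 178 in wild types (0.74 ± 0.28). Fos read 8605, 705, 963 and 1801 in mutants against 623, 965 and 842 in wild types, with mutant replicate 1 again the highest. Junb (0.66 ± 0.26), Klf4 (0.55 ± 0.22) and Klf10 (0.35 ± 0.16) were higher on average with overlapping groups. The list level was 0.75, -0.10, -0.12 and 0.09 in mutants against -0.26, -0.17 and -0.18 in wild types, so all mutants were above all wild types by this mean. Without mutant replicate 1 the median was 0.17. After saline it was -0.10, with 10 members higher and 21 lower. The part of tissue handling and of immune cells in the other differences was not tested.

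**Figure D4:**
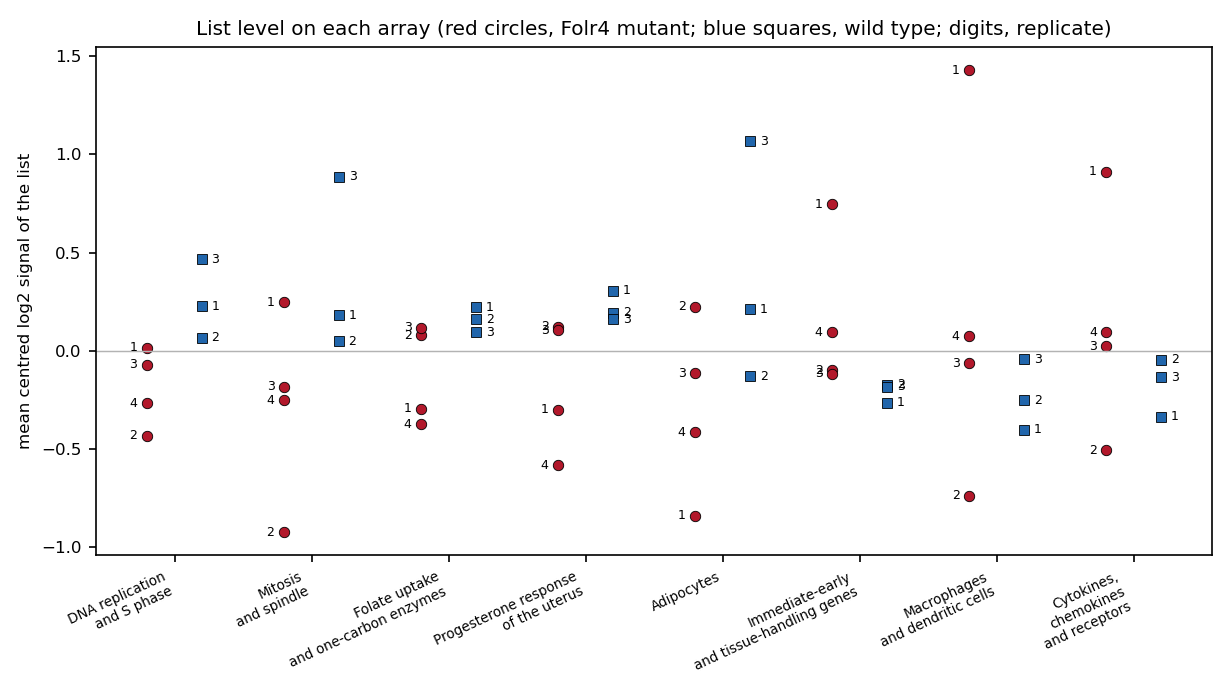
Mean centred log2 signal of 8 gene lists on each array after folinic acid, with Folr4 mutants as red circles left of wild types as blue squares and the replicate number beside each point. For DNA replication the mutants, at -0.43 to 0.02, lie below the wild types at 0.07 to 0.47, and for macrophages mutant replicate 1 stands alone at 1.43.

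Adipocyte genes were lower for 14 of 15 measured members at a median of -0.61, with 0 apart. Wild-type replicate 3 carried high signals, with Fabp4 at 995, 4843, 3772 and 1537 in mutants against 4824, 1773 and 15563 in wild types. The median was -0.38 without that array. After saline it was 0.13, with 9 members higher and 6 lower. Fasn, fatty acid synthase, read 1808, 2799, 3008 and 2757 in mutants against 4238, 2797 and 5093 in wild types (-0.62 ± 0.23), and Scd1, a desaturase, read 1473, 4515, 2545 and 1609 in mutants against 5529, 2049 and 10321 in wild types (-1.10 ± 0.65). The part of fat attached to the tissue in these differences was not tested.

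Energy metabolism showed small differences in many genes. Of 53 nuclear-encoded respiratory chain genes 40 were lower, at a median of -0.08, and 6 were apart (11.3%, all lower, beside 3.27% of all genes). None of the 53 had an unadjusted p under 0.05 in limma, beside 2.42% of all genes on the lower side. Atp5g1, the c subunit of ATP synthase, read 1758, 1739.6, 1589.7 and 1713 in mutants against 2455, 2186 and 2025 in wild types (-0.38 ± 0.20). Cyc1, cytochrome c1, read 3586, 3285, 3959.6 and 3304 in mutants against 4553, 4237 and 3988 in wild types (-0.27 ± 0.14). Of 25 measured genes of haem synthesis and iron 13 were higher and 12 lower, at a median of 0.00. In this list 2 were apart and lower, Fech and Alas2 (8%, beside 3.27% of all genes apart and lower and 1.73% apart and higher). Alas2, the erythroid enzyme of the first step of haem synthesis, read 246, 429.7, 253 and 322 in mutants against 443, 500.2 and 730.3 in wild types (-0.84 ± 0.31). Nfe2l2, the NRF2 factor of the antioxidant response, was apart and higher (0.42 ± 0.16, or 0.25 without wild-type replicate 2), while 19 of the 30 measured oxidative stress genes were lower. Of 33 proteasome genes 25 were lower at a median of -0.12, or -0.06 without wild-type replicate 3. Of these 1, Psmc5, was apart and lower (3.03%, beside 3.27% of all genes). The proteasome list level was -0.01, -0.10, -0.02 and -0.04 in mutants against 0.06, 0.02 and 0.08 in wild types, so all mutants were below all wild types by this mean. Among the 63 lists, levels were also apart for fatty acid genes (lower) and for hypoxia and strain-variable genes (higher). The strain-variable mean includes Erdr1 at 4.24, while 5 of its 11 members were higher and 6 lower, at a median of -0.03. How many lists would separate by chance was not counted. For the respiratory chain the levels overlapped, at -0.12 to 0.04 in mutants and 0.03 to 0.08 in wild types. Ribosomal protein genes (27 of 34 lower, median -0.04), collagens (20 of 36 higher, median 0.01) and stromal markers (20 of 32 higher, median 0.04) had medians near 0, which took either sign when 1 array was left out.

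**Figure D5:**
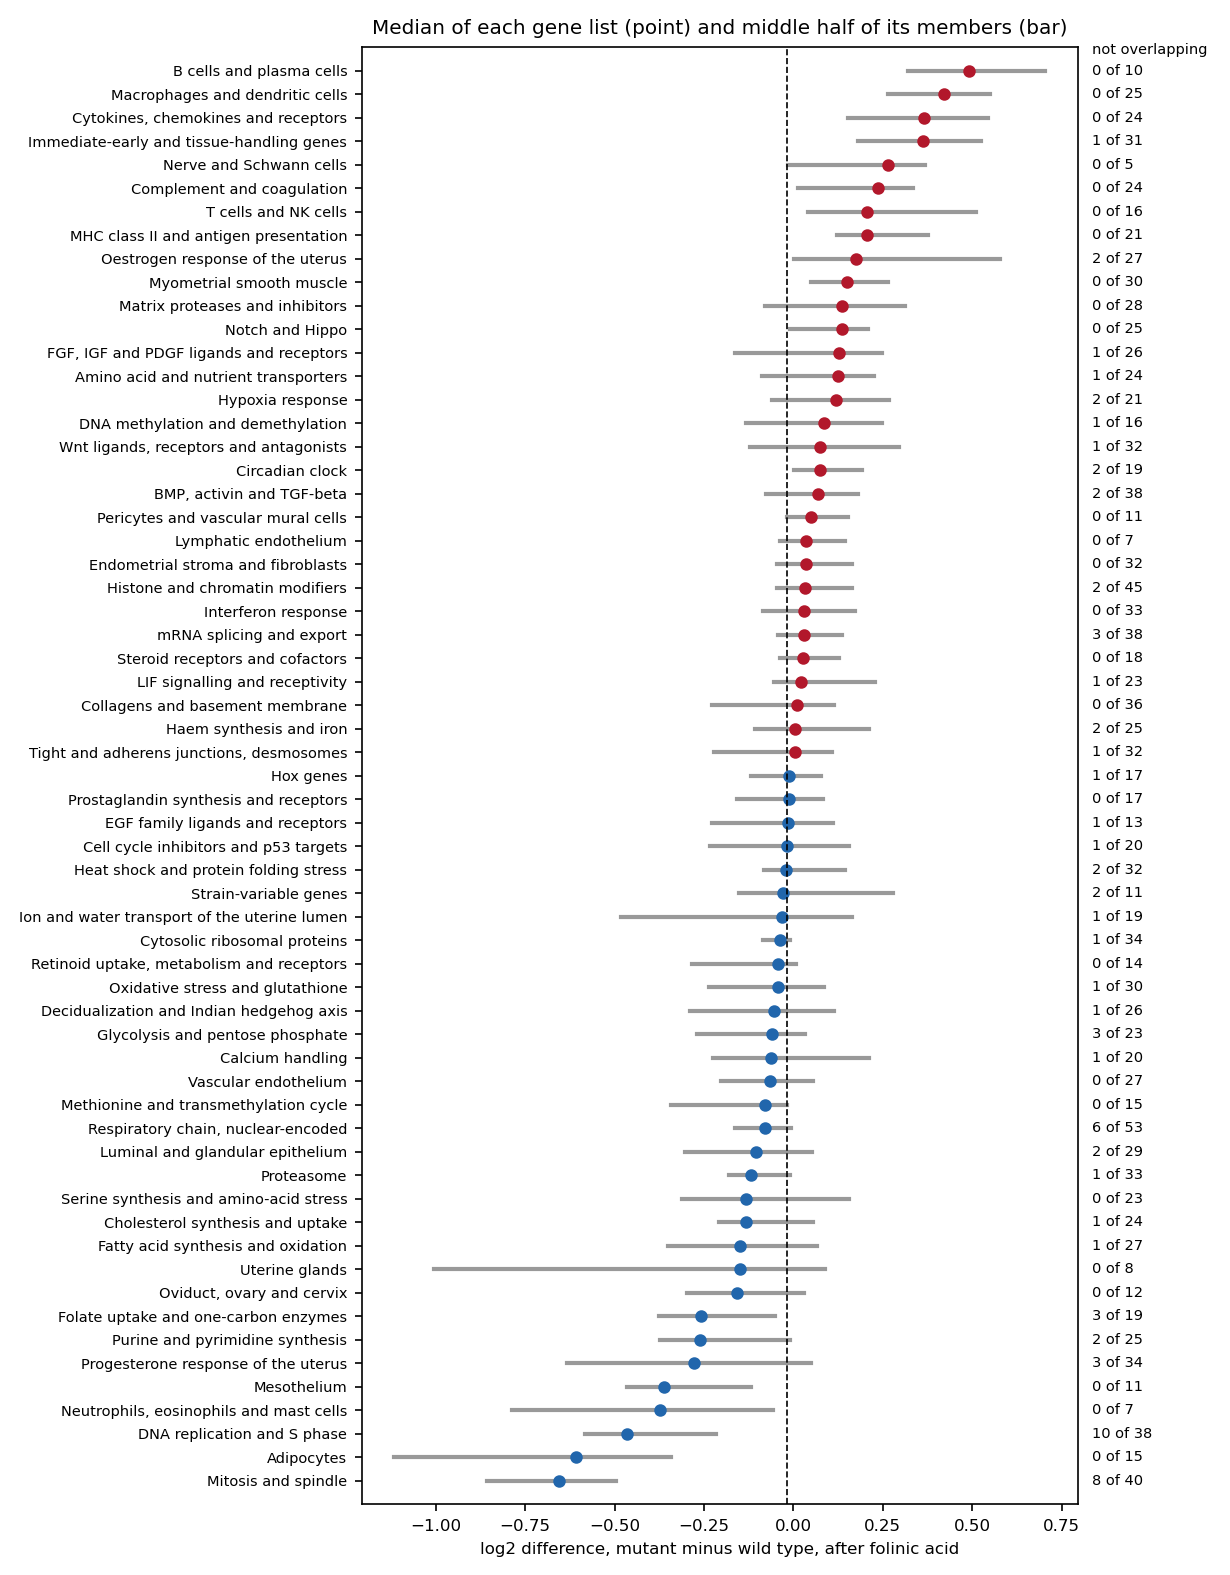
Median log2 difference of each gene list with at least 5 measured members (point, red above 0 and blue below) and the interquartile range of its members (bar), mutant minus wild type after folinic acid, with the number of members whose groups do not overlap at the right. The dashed line is the median of all genes, -0.02. Mitosis, at -0.65, is the lowest list and B cells, at 0.49, the highest, and DNA replication has the most genes apart, 10 of 38.

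A few genes had genotype differences of like sign and size after both injections. Mid1, a ubiquitin ligase gene that lies near Erdr1 on the X chromosome, read 395, 9196, 3668 and 1711 in mutants against 376, 583 and 489 in wild types (2.20 ± 0.74), and 4075, 1351 and 3430.0 in saline mutants against 284, 281, 645 and 333 in saline wild types. Mutant replicate 1 lay inside the wild-type range. Wdfy1, an endosomal adaptor gene, read 672, 254, 836 and 561 in mutants against 1122, 1046 and 1051 in wild types (-1.01 ± 0.36, or -0.66 without mutant replicate 2), beside -1.08 after saline. Erdr1 and Wdfy1 were the 2 genes apart of 11 measured strain-variable genes (18.2%, beside 1.73% of all genes apart and higher and 3.27% apart and lower). Nnt, the mitochondrial transhydrogenase, overlapped at -0.34 ± 0.17. Over all 11269 genes the genotype differences after folinic acid and after saline, which come from separate arrays, correlated at Pearson r = -0.27 and Spearman rho = -0.25, values across genes that are not independent. Of the 563 genes apart after folinic acid, 211 had the same sign after saline (37.5%), beside 42.1% of all genes. The difference between the 2 genotype effects was tested over all probe sets, and limma called 0 at an adjusted p of 0.05 (0.00%), while 1104 had an unadjusted p under 0.05 (4.90%).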

How the data were processed

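Total RNA of whole uterus was labelled by the one-cycle assay and hybridised to Affymetrix arrays, 1 per sample. The authors deposited an intensity on a linear scale for every probe set. MAS5 is the tool in the submitters' processing notes, its version not given there, and the values are scaled so that the trimmed mean of each array was 500. Such scaling makes changes relative to the array average. Detection calls did not enter. The number of arrays sets the precision.

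Control probe sets were left out, 64 of 45101. Signals under 1 were raised to 1 (0.505% of values) and put on the log2 scale. Probe sets with a mean log2 signal over 14 arrays at or above the median (a signal of 134) were kept, 22519 in all, 19116 with 1 gene symbol, for 11269 genes. That filter can remove a probe set that is off in 1 group. Symbols came from the platform annotation, updated through RefSeq gene identifiers for 34741 of 34945 probe sets with 1 symbol. Of the others, 932 had several and 9160 none.

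limma 3.58.1 in R 4.3.3 fitted 4 group means to 14 arrays (10 residual and 5.04 prior degrees of freedom, variance trend), with two-sided tests and Benjamini-Hochberg adjustment. Folr4 was tested by exact permutation. A gene in a list is represented by its probe set of highest mean log2 signal. The 63 lists held 1615 genes on the array, 1323 of them kept. The members, lists and rules were chosen with earlier results of these data known. Genes named are those past the threshold, the 15 per direction of smallest p, the 10 per direction of largest difference with groups apart, up to 4 per list of smallest p, and Folr4, Folr1 and Folr2. Others are members of a list or a marker set, chosen after their values were seen. The p-values rest on the spread between samples within groups, with all samples fitted as independent.

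Replicate numbers of mutants and wild types did not pair the samples, with correlations of their deviations of -0.05, 0.03 and -0.07. Alternatives were quantile normalization, an offset of 16, no filter, the upper 35 percent, 1 probe set per gene, no trend, robust variances, array weights, the 7 arrays alone, a replicate block, the title number as a random block, the actin ratio as a covariate, and leaving out each array.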

Additional observations from a re-analysis of the deposited data

Results flagged for a closer look

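Of 103 genes and 63 list levels examined in the 4 mutant arrays after folinic acid, 3 had an array separated from the others by a gap above Dixon's critical value for groups of that size. Chance alone gives such a gap in about 1 of 20 groups. Rrm2b was lowest in mutant replicate 4, with a gap of 0.836 of the range. Wee1, a kinase that holds back mitosis, was highest in mutant replicate 2, with a gap of 0.849 (311, 576, 294 and 279 in mutants against 851, 459.9 and 408 in wild types). The list of myometrial smooth muscle was highest in mutant replicate 2, with a gap of 0.844, and its levels were 0.00, 0.41, -0.08 and -0.04 in mutants against -0.34, 0.37 and -0.32 in wild types.

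Probe set 1439200_x_at, which carries no gene symbol here, was below the filter and outside the comparisons above. It read 1859, 1829, 2040 and 1399 in mutants against 4.1, 1.88 and 22.4 in wild types after folinic acid, and 2469, 1785 and 1344 in mutants against 30.8, 5.75, 0.756 and 2.53 in wild types after saline. Its log2 difference after folinic acid was 8.31 without the filter.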

How the results depend on the processing

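The Erdr1 difference passed the threshold under every alternative, between 4.03 and 4.53 when 1 array was left out. The probe sets past the threshold numbered 1 throughout, except for 2 without the filter, where 1439200_x_at was added (adjusted p = 0.00161 in limma). Probe sets with an unadjusted p under 0.05 numbered 1753 without the filter (759 higher, 994 lower), 454 with 1 probe set per gene (175 higher, 279 lower) and 1488 with array weights (592 higher, 896 lower), beside 858. Leaving out 1 array gave 625 to 1681, with 274 to 784 higher and 297 to 897 lower. Probe sets apart between groups numbered 2424 without the filter (1000 higher, 1424 lower) and 563 with 1 probe set per gene (195 higher, 368 lower), beside 1112. Fewer or more probe sets tested account for the filter and gene settings. Leaving out 1 array gave 1112 to 2941, with 425 to 1300 higher and 687 to 1641 lower, the highest without mutant replicate 2. Counts of groups apart cannot fall when an array is left out, so their lowest values were fixed in advance. The median of DNA replication genes ranged from -0.63 to -0.30 and that of mitosis genes from -0.83 to -0.40 when 1 array was left out, with 10 to 19 and 8 to 23 genes apart. Folr2, near 0, reversed to 0.0084 with the actin ratio as a covariate, 0.23 without wild-type replicate 2, 0.0052 without mutant replicate 2 and 0.24 without mutant replicate 3. The cause was not tested, nor was that of the counts with array weights or without single arrays. Of 103 genes, 28 had a log2 difference that moved by over 1.5 times when 1 array was left out. With a replicate block 789 probe sets had an unadjusted p under 0.05 and 1 passed the threshold, and no call changed. With the title number as a random block, at a correlation of 0.16, they numbered 719 in limma, and 1 passed the threshold. Arrays were few, so modest differences could be missed.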

Other observations

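Mesothelial genes, which mark the outer lining of the uterus, were lower for 9 of 11 measured members in mutants after folinic acid, with a median of -0.36 and 0 apart, and after saline 10 of 11 were lower at a median of -0.40. The folinic acid median was -0.21 without mutant replicate 1 and -0.16 without mutant replicate 3. Myometrial smooth muscle genes were higher for 24 of 30 members at a median of 0.15, with 0 apart, and the median lay between 0.03 and 0.37 when 1 array was left out. Of 23 measured genes of glycolysis and the pentose phosphate pathway 3 were apart and lower, against 3.27% of all genes. They were named because their groups were apart. Hk1, a hexokinase, differed by -0.18 ± 0.12 (SE), Ldha, lactate dehydrogenase A, by -0.27 ± 0.12 and Pgls, a lactonase of the pentose phosphate pathway, by -0.31 ± 0.13.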
